A study of Mus musculus with 6 samples.

Results

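The genes of glucose uptake and glycolysis described here are 10 mouse genes chosen by name: the glucose transporters Slc2a1 and Slc2a4, the hexokinases Hk1 and Hk2, the phosphofructokinases Pfkm and Pfkp, the lactate dehydrogenases Ldha and Ldhb, the pyruvate dehydrogenase kinase Pdk4 and the transcription factor gene Hif1a. They are 10 of the 21911 protein-coding genes of the GENCODE M21 annotation of mm10. Every peak of open chromatin that overlapped one of these genes or the 10 kb to either side was taken. This gave 404 of the 587191 peaks in the series, and they merged into 92 of the 169872 regions formed by joining overlapping peaks over all libraries.

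Cells take up glucose through GLUT1, encoded by Slc2a1 and present in most cells, and through GLUT4, encoded by Slc2a4, which moves to the surface of muscle and fat cells in response to insulin. Hexokinase traps the sugar as glucose 6-phosphate, phosphofructokinase commits it to glycolysis, and lactate dehydrogenase interconverts pyruvate and lactate. PDK4 inhibits the pyruvate dehydrogenase complex, and HIF1alpha, the product of Hif1a, induces many glycolytic genes when oxygen is low. The fetal heart relies largely on glycolysis and lactate, and around birth the heart turns to fatty acids as its main fuel.

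Accessibility was measured by Omni-ATAC-Seq, a method that tags open DNA with a transposase, with 50000 nuclei per library. Whole hearts were taken at postnatal day 1 (P1), and all nuclei passed through a 2.2 M sucrose cushion. The 6 libraries form 3 groups of 2 independent biological replicates. Input holds the cushion-purified nuclei of WT hearts. Myc holds nuclei of Nkx2-5 Cre/+; R26RSun1-Myc-Egfp/+ hearts captured with a Myc antibody by MAN-IP, a magnet-assisted immunoprecipitation of nuclei, and PCM1 holds nuclei, of hearts described as WT in one label although the genotype label names only the enrichment, captured by MAN-IP with an antibody to PCM1, a centrosomal protein that coats the nuclei of cardiomyocytes. In Myc the tag depends on Cre driven by Nkx2-5, so it marks every cell whose ancestors expressed that gene, which in the heart includes cells other than cardiomyocytes, and the Myc animals carry the Cre and reporter alleles, which the WT animals do not. As the study describes its workflow, the Input nuclei are an aliquot of cushion-purified nuclei and the rest went into MAN-IP, so that libraries of different groups may share a preparation. The labels do not say which, and the tests over 6 libraries treat them as independent.

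The authors called peaks in each library, which gave between 75336 and 131500 peaks per library, and the deepest library, Input replicate 1, was 4.39 times as deep as the shallowest, PCM1 replicate 2. Signal was compared as a rank percentile: the share of peaks in the same library whose -log10 q-value was no higher, so that 100 is the strongest peak, and 0 was given where a library had no peak. A longer list adds weak peaks below a region and so raises its percentile, and the order of the groups at a region was therefore also taken with the strongest 75336 peaks of each library. In nuclei of a mixed tissue a lower signal from fewer cells of a type and from less open chromatin per cell cannot be told apart. The start sites of all 6 cardiomyocyte markers, such as Myh6 and Tnnt2, were open in every library. Of the other marker lists, 5 of 6 fibroblast genes and 6 of 6 endothelial genes were open in every library, whereas 4 of 6 immune markers (Ptprc, Cd68, Csf1r and Cd52) and 4 of 6 erythroid markers (Hba-a1, Hbb-bt, Alas2 and Slc4a1) had a peak in none.

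The sequences below carry the observations that follow: the strongest start site of the 10 genes, the start sites of Ldha and Pfkm and an Hk1 intron region, whose ranks differed between Myc and PCM1, a strong Slc2a1 intron region open in all libraries, and 2 regions found in some groups and not in others. They are from mm10 (GRCm38.p6), 5′ to 3′ on the strand of the gene. Capitals mark matches, on either strand, to 6 motifs: ACGTG, the core of the hypoxia response element, CACGTG, an E-box that contains that core on both strands, the GC box GGGCGG, the TEAD motif CATTCC, the GATA motif AGATAA and the MEF2 motif. A sequence without capitals holds none of these letters in this window. The Ldha and Pfkm stretches are the 250 bases before a RefSeq start, and the others are the 201 bases around a peak summit.
Pdk4, start site, chr6:5496343-5496543, minus strand: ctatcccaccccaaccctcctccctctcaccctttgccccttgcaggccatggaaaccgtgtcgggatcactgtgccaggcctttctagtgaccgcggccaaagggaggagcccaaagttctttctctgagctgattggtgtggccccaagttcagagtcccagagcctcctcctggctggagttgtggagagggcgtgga
Ldha, before the start site, chr7:46845554-46845803, plus strand: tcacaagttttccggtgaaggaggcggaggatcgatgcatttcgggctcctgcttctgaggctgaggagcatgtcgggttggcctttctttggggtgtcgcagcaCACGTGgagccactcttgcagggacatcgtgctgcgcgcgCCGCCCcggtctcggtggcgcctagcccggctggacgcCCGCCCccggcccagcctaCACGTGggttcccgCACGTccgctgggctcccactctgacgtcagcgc
Pfkm, before the second start site, chr15:98108221-98108470, plus strand: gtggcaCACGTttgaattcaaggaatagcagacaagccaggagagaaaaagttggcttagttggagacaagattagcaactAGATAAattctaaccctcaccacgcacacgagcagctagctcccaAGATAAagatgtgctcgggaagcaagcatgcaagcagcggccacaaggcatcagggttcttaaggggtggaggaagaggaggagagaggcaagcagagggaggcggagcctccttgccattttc
Pfkm, before the third start site, chr15:98111810-98112059, plus strand: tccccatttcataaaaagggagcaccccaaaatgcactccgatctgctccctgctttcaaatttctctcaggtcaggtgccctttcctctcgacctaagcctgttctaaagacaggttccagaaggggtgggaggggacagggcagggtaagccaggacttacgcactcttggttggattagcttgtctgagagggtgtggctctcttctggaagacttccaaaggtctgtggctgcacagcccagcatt
Slc2a1, intron, chr4:119118667-119118867, plus strand: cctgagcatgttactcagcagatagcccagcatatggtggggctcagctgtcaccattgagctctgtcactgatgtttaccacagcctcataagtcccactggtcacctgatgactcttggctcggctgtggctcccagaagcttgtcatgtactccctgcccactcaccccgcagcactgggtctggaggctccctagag
Hk1, intron, chr10:62332573-62332773, minus strand: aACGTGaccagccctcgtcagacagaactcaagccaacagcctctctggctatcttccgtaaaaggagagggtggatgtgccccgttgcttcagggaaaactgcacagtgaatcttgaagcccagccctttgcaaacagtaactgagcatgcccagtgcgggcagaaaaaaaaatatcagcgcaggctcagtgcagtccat
Slc2a1, downstream of the gene, chr4:119142309-119142509, plus strand: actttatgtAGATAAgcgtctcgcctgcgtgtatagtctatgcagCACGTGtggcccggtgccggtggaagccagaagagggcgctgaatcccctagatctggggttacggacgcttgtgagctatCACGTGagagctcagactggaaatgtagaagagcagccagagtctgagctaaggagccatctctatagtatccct
Hif1a, intron, chr12:73931409-73931609, plus strand: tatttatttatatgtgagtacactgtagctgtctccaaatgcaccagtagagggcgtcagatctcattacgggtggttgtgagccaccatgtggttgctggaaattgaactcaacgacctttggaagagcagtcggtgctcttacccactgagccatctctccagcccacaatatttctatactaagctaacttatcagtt

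All 10 genes had a peak within 1 kb of a transcription start site (TSS), the start of a protein-coding transcript of the basic annotation, in all 6 libraries, as did 59.2% of all protein-coding genes. The median of their mean TSS percentiles was 94.7, beside 71.8 over all 21911 genes and 90.8 over the 12976 genes with a TSS peak in every library. Pdk4 led the order, followed by Hif1a, Hk1, Ldhb, Hk2, Slc2a4, Pfkp, Slc2a1, Ldha and Pfkm. Between neighbours, Hk1 was above Ldhb in 6 of 6 libraries, by 1.48 ± 0.669 percentage points (SD, n = 6), and Hk2 was above Slc2a4 in 6 of 6, by 3.52 ± 0.916. The other neighbours changed places in at least 1 library, so that Pdk4, Hif1a and Hk1, then Ldhb and Hk2, and then the last 5 genes were not separated from their neighbours beyond the spread over libraries.

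**Figure D1:**
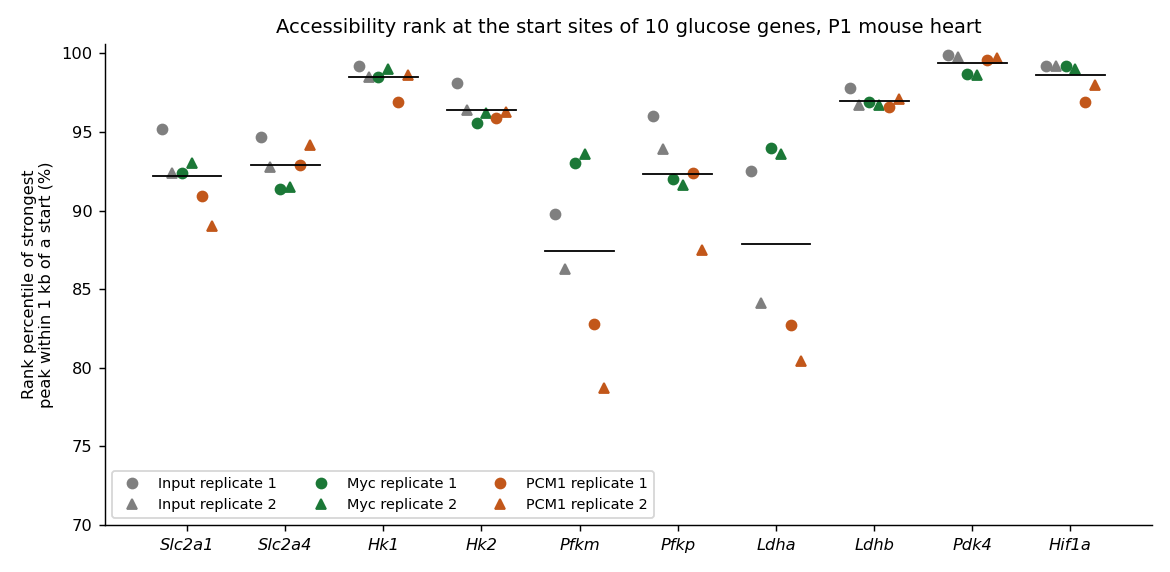
Rank percentile (y axis, in percent, starting at 70) of the strongest peak within 1 kb of a TSS of each of the 10 genes (x axis) in the 6 libraries, with a horizontal line at the mean of the 6. Pdk4, Hif1a, Hk1, Ldhb and Hk2 sit above 95 in every library, whereas Pfkm and Ldha spread from 78.7 to 93.6 and from 80.4 to 94.0, with both Myc libraries at the top and both PCM1 libraries at the bottom.

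The 2 glucose transporters ranked alike. The TSS of Slc2a1 (ENSMUSG00000028645.11, chr4:119108711-119137983, plus strand) stood at percentiles 95.2 and 92.4 for Input, 92.4 and 93.0 for Myc and 90.9 and 89.0 for PCM1. The TSS of Slc2a4 (ENSMUSG00000018566.14, chr11:69942539-69948188, minus strand) stood at 94.7 and 92.8 for Input, 91.4 and 91.5 for Myc and 92.9 and 94.2 for PCM1. Both genes were therefore among the more open ones, above 73.7% and 75.7% of all protein-coding genes by mean. Slc2a4 minus Slc2a1 was 0.743 ± 2.52 percentage points (SD, n = 6), with Slc2a4 higher in 3 of 6 libraries (exact sign-flip permutation test, two-sided, p = 0.625, adjusted over the 4 isoform pairs p = 0.625). The difference was -4.18 when peaks were ranked by fold enrichment, and -0.159 without PCM1 replicate 2.

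The 2 transporter genes differed in what lay around the TSS. Slc2a1, a gene of 29.3 kb, had 11 regions (2.23 per 10 kb of window), 6 of them open in every library. An intron region 10.1 kb from the TSS (chr4:119118569-119119111) was nearly as strong as the TSS itself, at 94.9 and 91.7 for Input, 90.5 and 89.6 for Myc and 88.7 and 92.0 for PCM1. Its sequence holds none of the 6 motifs. Slc2a4, a gene of 5.65 kb, had 5 regions (1.95 per 10 kb of window). The strongest away from its own TSS lay 12.4 kb downstream at a start site of the neighbouring gene Ybx2 (chr11:69935405-69936251). That region stood at 88.1 and 79.3 for Input, 83.8 and 77.4 for Myc and 60.8 and 59.5 for PCM1, so that both PCM1 libraries were below the other 4, as they were at an equal number of peaks, at 56.8 and 56.2 against 67.4 or more.

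Among the distal regions, the one 33.7 kb from the Slc2a1 TSS, past the end of the gene (chr4:119142242-119142836), was present in 4 libraries, at 69.3 and 61.8 in Input and 62.2 and 76.8 in Myc, and had no peak in either PCM1 library. At an equal number of peaks it was present in the same 4 libraries, between 46.3 and 66.6. Input replicate 2, with fewer peaks than either PCM1 library and a genome background of 1.02 beside 0.977 and 0.903, had a pileup of 26 reads at this summit. The part of depth in the missing PCM1 peaks was not tested. The sequence printed above holds 2 E-boxes and 1 GATA match. A weak region about 1 kb nearer to the gene (chr4:119141200-119141568) had a peak in 4 libraries, at 16.4 and 5.12 for Input and 10.8 and 34.5 for PCM1, and none in either Myc library.

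The hexokinases, which carry out the first step of glycolysis, were among the most open of the 10. Hk1 (ENSMUSG00000037012.18, chr10:62268855-62379908, minus strand), the form found in most tissues, had TSS percentiles of 99.2 and 98.5 for Input, 98.5 and 99.0 for Myc and 96.9 and 98.6 for PCM1. Hk2 (ENSMUSG00000000628.10, chr6:82725025-82774454, minus strand), the insulin-regulated form of muscle and fat, had 98.1 and 96.4 for Input, 95.6 and 96.2 for Myc and 95.9 and 96.3 for PCM1. Hk1 was thus the higher of the pair in each library. Hk2 minus Hk1 was -2.02 ± 0.848 percentage points (SD, n = 6) by an exact sign-flip permutation test (two-sided p = 0.0312, the lowest possible with 6 libraries, adjusted p = 0.0625), which does not pass 0.05 after adjustment. The direction turned to 2.54 when peaks were ranked by fold enrichment. The open TSS of Hk1 is not the 5′ end of the annotated gene but an internal start (chr10:62339742-62340763). At the 5′ end, the region 1.26 kb upstream was at 14.2 and 0 for Input, 20.7 and 26.3 for Myc and 54.0 and 0 for PCM1, but within 1 kb of that end only the Myc replicate 2 peak counted, so that with the 5′ end alone the mean of Hk1 was 4.38 and Hk2 minus Hk1 was 92.1.

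Hk1, a gene of 111 kb, had 19 regions, the most of the 10 genes, and Hk2, of 49.4 kb, had 15. Per 10 kb of window this was 1.45 for Hk1 and 2.16 for Hk2. The strongest region of Hk1 away from a TSS lay in an intron, 7.87 kb downstream of the nearest TSS (chr10:62332409-62333126), at 97.2 and 93.9 for Input, 90.4 and 90.8 for Myc and 97.6 and 95.8 for PCM1. Both Myc libraries were below the other 4, also at an equal number of peaks, where they stood at 86.3 and 86.7 against 93.9 or more. The pileup at its summit over the library's background was 141 and 133 for Input, 81.3 and 86.8 for Myc and 174 and 154 for PCM1, in the same order. The sequence holds 1 ACGTG core and no E-box. Most of the Hk2 regions lay in introns at middle ranks, and the strongest away from the TSS, 51.8 kb downstream of it, stood between 63.7 in Myc replicate 1 and 81.4 in Input replicate 1. An Hk2 intron region 21.4 kb downstream of the TSS (chr6:82751823-82752134) was highest in Myc with all peaks, at 68.6 and 77.3, beside 59.3 and 56.3 for Input and 59.2 and 57.5 for PCM1, but the groups overlapped at an equal number of peaks.

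**Figure D2:**
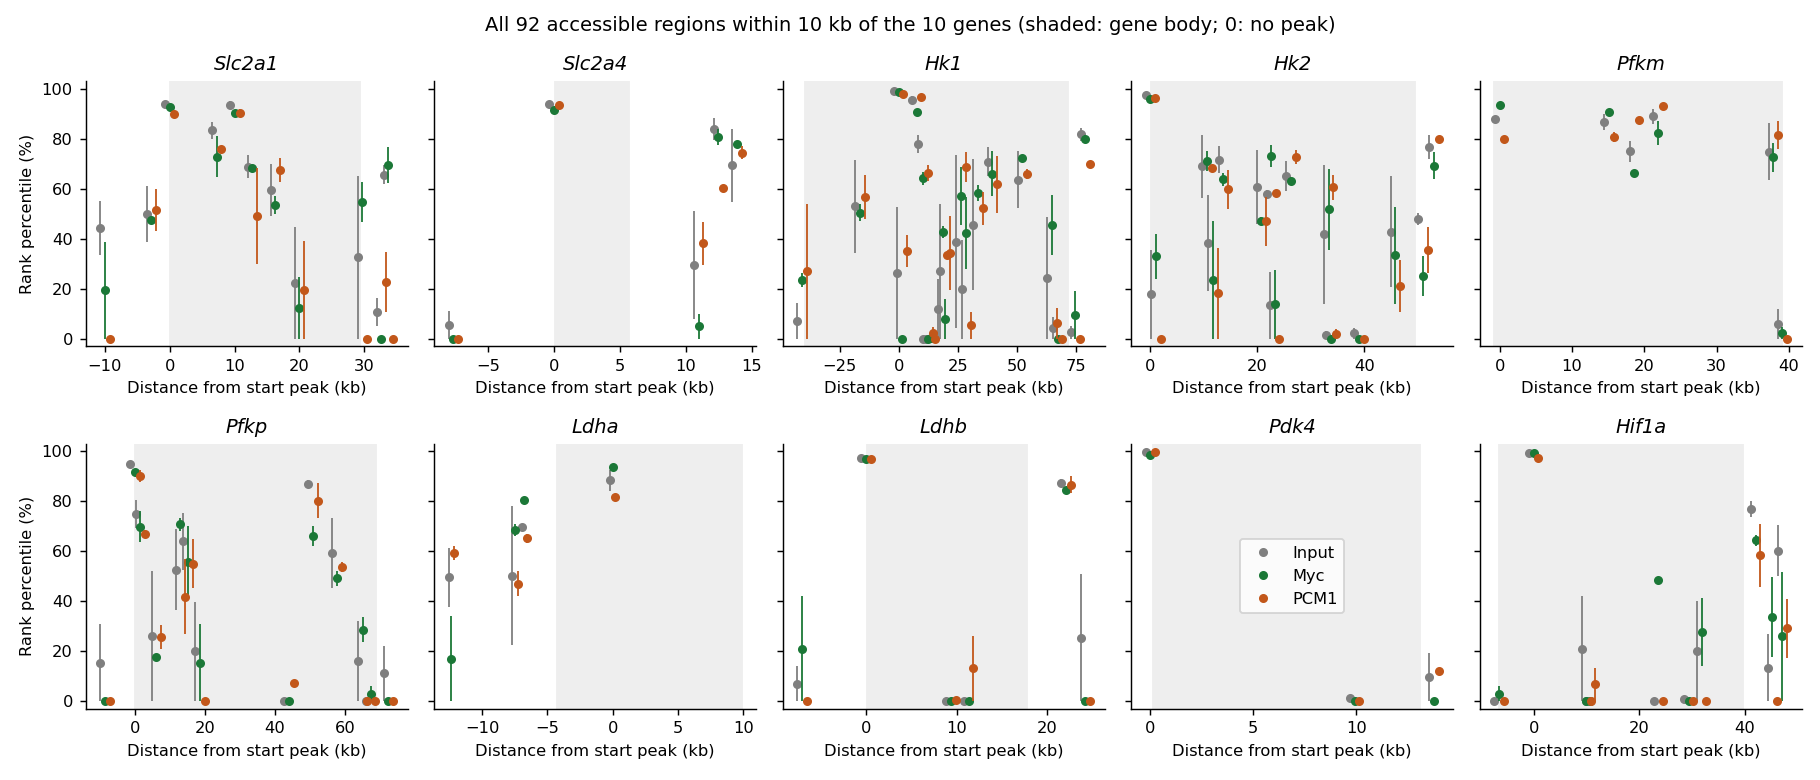
All 92 regions of the 10 genes by distance from the summit of the gene's strongest start region (x axis, in kb, downstream to the right) and rank percentile (y axis, in percent). A dot is the mean of the 2 libraries of a group, a vertical line joins the 2 values, grey shading is the gene body, dots of the 3 groups are set slightly apart, and 0 means no peak. Hk1 has 19 regions spread over the gene, whereas Pdk4 has 1 region near 100 and 2 others at the bottom.

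Phosphofructokinase is the main control point of glycolysis, and its muscle and platelet forms are encoded by Pfkm and Pfkp. Pfkm (ENSMUSG00000033065.14, chr15:98092589-98132451, plus strand) had TSS percentiles of 89.8 and 86.3 for Input, 93.0 and 93.6 for Myc and 82.8 and 78.7 for PCM1. Pfkp (ENSMUSG00000021196.14, chr13:6579768-6648777, minus strand) had 96.0 and 93.9 for Input, 92.0 and 91.6 for Myc and 92.4 and 87.5 for PCM1. Pfkm was the lower of the pair in Input and PCM1 and the higher in Myc, where its strongest start region is one shared with the gene Senp1. Over all libraries Pfkm minus Pfkp was -4.90 ± 5.10 percentage points (SD, n = 6), with Pfkm higher in 2 of 6 (exact sign-flip permutation test, two-sided, p = 0.125, adjusted p = 0.167). With the strongest peak of the window in place of the TSS it was -0.445. The strongest Pfkp region away from the TSS lay in a coding exon (chr13:6597691-6598219) and stood at 88.4 and 85.2 for Input, 70.1 and 62.1 for Myc and 87.3 and 73.2 for PCM1. Both Myc libraries were the lowest there, also at an equal number of peaks, at 57.4 and 45.4 against 71.0 or more.

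The peaks at Pfkm are spread over 3 start regions, and these moved in opposite directions between the groups. The first (chr15:98092812-98093803) lies at the start of the gene and also at start sites of the neighbouring gene Senp1, so that the signal of the 2 genes cannot be told apart, and it stood at 89.1 and 86.3 for Input, 93.0 and 93.6 for Myc and 81.0 and 78.3 for PCM1. The second (chr15:98108279-98109150) stood at 89.8 and 83.3 for Input, 89.1 and 91.8 for Myc and 82.8 and 78.7 for PCM1. The third (chr15:98111835-98112158), 3.52 kb downstream of the second in a GENCODE intron and just before a RefSeq start, stood at 79.0 and 70.7 for Input, 65.6 and 66.6 for Myc and 87.3 and 87.9 for PCM1. PCM1 was thus the lowest group at the first and second starts and the highest at the third, where Myc was the lowest, and these orders held at an equal number of peaks.

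The same was seen on a scale that does not use ranks. The pileup at the summit of the third start over the library's background was 37.6 and 46.1 for Input, 32.6 and 35.4 for Myc and 81.9 and 93.0 for PCM1, and at the first start it was 46.7 and 64.7 for Input, 86.8 and 91.7 for Myc and 42.0 and 39.9 for PCM1. The ratios overlapped at the second start, with 52.8 and 57.8 for Input, 61.1 and 75.7 for Myc and 57.3 and 54.3 for PCM1. The third start minus the first, in percentile, was -10.1 and -15.6 for Input, -27.4 and -27.0 for Myc and 6.33 and 9.59 for PCM1, so that only in the 2 PCM1 libraries did the third start rank above the first. The intron region 6.77 kb downstream of the nearest GENCODE start, the second (chr15:98114978-98115686), ran the same way as the third start. It stood at 92.0 and 86.0 for Input, 77.4 and 87.1 for Myc and 91.8 and 94.1 for PCM1, although the groups overlapped with all peaks. No test between groups was run, since 2 libraries against 4 cannot give an exact permutation p below 0.0667. The stretch before the second start holds 2 GATA matches and 1 ACGTG core, and the stretch before the third holds none of the 6 motifs.

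**Figure D3:**
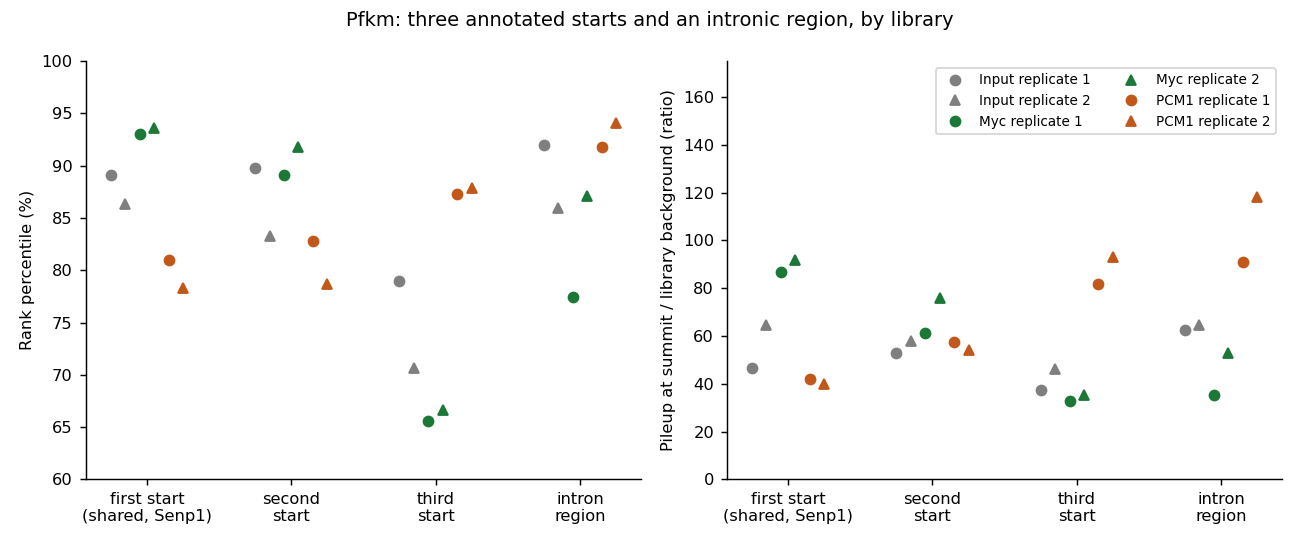
The 3 start regions of Pfkm and its intron region (x axis) in the 6 libraries, as rank percentile (left, in percent, axis from 60) and as the pileup at the summit divided by the library's genome background (right, a ratio). At the third start the 2 PCM1 libraries, at 87.3 and 87.9 on the left and 81.9 and 93.0 on the right, lie above the other 4, and at the first start they lie below them.

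Lactate dehydrogenase is built from A subunits, which prevail in tissues that make lactate, and B subunits, which prevail in the heart. Ldhb (ENSMUSG00000030246.11, chr6:142490249-142507957, minus strand) had TSS percentiles of 97.8 and 96.7 for Input, 96.9 and 96.7 for Myc and 96.6 and 97.1 for PCM1. Ldha (ENSMUSG00000063229.15, chr7:46841475-46855627, plus strand) had 92.5 and 84.1 for Input, 94.0 and 93.6 for Myc and 82.7 and 80.4 for PCM1. Ldhb was steady over the libraries, with an SD of 0.469, and Ldha was the most variable of the 10, with an SD of 6.13. Ldhb minus Ldha was 9.08 ± 6.0 percentage points (SD, n = 6), with Ldhb higher in 6 of 6 libraries (exact sign-flip permutation test, two-sided, p = 0.0312, adjusted p = 0.0625), which does not pass 0.05 after adjustment. The difference was 21.9 when peaks were ranked by fold enrichment, and 97.0 with the 5′ end of each gene alone, since no library had a peak within 1 kb of the annotated 5′ end of Ldha.

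At the Ldha TSS both Myc libraries were above and both PCM1 libraries below the rest, also at an equal number of peaks, where the values were 87.0 and 84.1 for Input, 91.4 and 90.8 for Myc and 80.9 and 78.8 for PCM1. The pileup over background was 82.1 and 73.5 for Input, 113 and 112 for Myc and 61.4 and 59.8 for PCM1. This TSS is an internal start of Ldha, and its peak summit lies 4.29 kb downstream of the annotated 5′ end. The region 6.83 kb upstream of that TSS and 2.47 kb upstream of the 5′ end (chr7:46838819-46839731) was also highest in Myc at both list lengths, with all peaks at 80.3 and 80.5, beside 71.1 and 68.0 in Input and 67.0 and 63.3 in PCM1. The region 12.4 kb upstream of that TSS and 8.05 kb upstream of the 5′ end (chr7:46833289-46833628) went the other way at both list lengths, with all peaks at 34.1 and 0 in Myc, beside 61.5 and 37.6 in Input and 62.2 and 56.5 in PCM1. The Ldha promoter holds 2 E-boxes and a further ACGTG core, besides 2 GC boxes. Ldhb had 6 regions, 3 of them called in 1 library, and the strongest away from the TSS, 22.0 kb downstream of it, stood between 83.2 and 89.9.

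Markers of other cell types are given beside these values. Of the 6 fibroblast markers, 2 (Col1a1 and Pdgfra) had both Myc libraries above the other 4 and a different 3 (Col3a1, Tcf21 and Postn) had both PCM1 libraries below. The sum of the 6 fibroblast TSS percentiles was 464 and 364 for Input, 444 and 455 for Myc and 357 and 305 for PCM1, and Col3a1 had no TSS peak in PCM1 replicate 2. The sum over the 6 endothelial markers was 448 and 310 for Input, 457 and 471 for Myc and 347 and 391 for PCM1. The sum over the 6 cardiomyocyte markers was 562 and 529 for Input, 512 and 541 for Myc and 532 and 532 for PCM1. The sums use all peaks of each library. The cushion used for all 3 groups is described by the study as leaving mostly cardiomyocyte nuclei, and the part of other cells in the differences at Ldha and Pfkm was not tested.

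**Figure D4:**
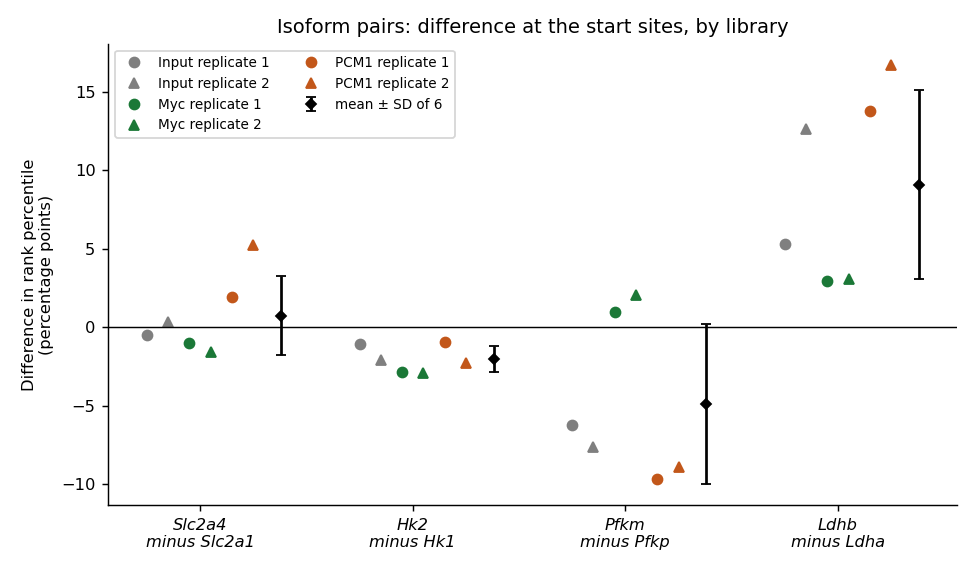
Difference in TSS rank percentile between the isoforms of each step (y axis, in percentage points, first gene minus second) for the 4 pairs (x axis) in the 6 libraries, with a diamond and bar for the mean ± SD of the 6. Ldhb is above Ldha and Hk2 below Hk1 in 6 of 6 libraries, and Pfkm minus Pfkp is above 0 in the 2 Myc libraries only.

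Pdk4 (ENSMUSG00000019577.6, chr6:5483351-5496309, minus strand) had the strongest TSS of the 10 genes by mean, above 97.9% of all protein-coding genes. Its TSS peak ranked 139th and 137th from the top of the list in Input, 1363rd and 1553rd in Myc, and 293rd and 266th in PCM1, at percentiles of 99.9 and 99.8, 98.7 and 98.6, and 99.6 and 99.7. Both Myc libraries were the lowest and both Input libraries the highest, also at an equal number of peaks. The pileup over background was 332 and 361 for Input, 203 and 203 for Myc and 277 and 306 for PCM1. Away from this peak the gene was nearly bare: its 2 other regions were called in 3 libraries and in 1 library, with a percentile of at most 19.2. Of the 6 cardiomyocyte markers, 3 (Myh6, Tnnt2 and Myl2) were lowest in both Myc libraries. Myh6 stood at 98.9 and 98.7 for Input, 88.8 and 92.6 for Myc and 99.0 and 98.8 for PCM1. Actn2, Ryr2 and Nppa were not lowest in Myc. Actn2 stood at 89.6 and 82.9 for Input, 88.7 and 89.9 for Myc and 81.7 and 85.5 for PCM1. The part of cell composition in the lower Pdk4 signal of Myc was not tested. The stretch around the Pdk4 summit holds none of the 6 motifs. The 250 bases before the RefSeq start of Pdk4 hold 1 GATA match, just past the end of that stretch.

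Hif1a (ENSMUSG00000021109.13, chr12:73901375-73947530, plus strand) was almost as open at its TSS, at 99.2 and 99.2 for Input, 99.2 and 99.0 for Myc and 96.9 and 98.0 for PCM1. The open start is the downstream one of its 2 annotated starts (chr12:73907403-73908682), and the upstream one had a peak in Myc replicate 2 alone, at 5.99. Both PCM1 libraries were the lowest at the open start, also at an equal number of peaks. Only 2 of the 10 Hif1a regions were open in every library, and the strongest away from the TSS, 42.0 kb downstream of it, stood at 80.0 and 73.6 for Input, 62.1 and 66.6 for Myc and 45.9 and 71.0 for PCM1. An intron region 23.6 kb downstream (chr12:73931097-73931686) was called in the 2 Myc libraries and in no other, at 49.6 and 47.1, with pileups of 20 and 18 reads. Its sequence holds none of the 6 motifs.

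Over the 92 regions, 47 were open in all 6 libraries, beside 28.8% of all merged regions, and 16 were called in 1 library, beside 30.4%. Of the 14 regions at a TSS, 11 were open in all 6, and of the 78 others, 36 were, among them 24 of the 47 whose summit lay in an intron. Of the 16 regions called in 1 library, 7 were in Input replicate 1, the deepest, and none of the 16 exceeded a percentile of 50.9. In the 47 shared regions the median difference between replicates was 8.40 percentage points in Input, 4.53 in Myc and 4.10 in PCM1.

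Few regions belonged to 1 group alone. No region was in both Input libraries and no other, beside 1.08% of all merged regions. The Hif1a intron region was the only one in both Myc libraries and no other, beside 1.84%. A Pfkp intron region 44.0 kb downstream of the TSS was the only one in both PCM1 libraries and no other, beside 0.254%, and it was weak, at 7.32 and 7.27 with a pileup of 7 reads in each. The 2 peaks overlap only at their edges, and the count was 0 when 201-base stretches around the summits were merged in place of whole peaks.

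With all peaks, both Input libraries were above the other 4 at 7 regions and below them at 1, beside 4.75% and 0.611% of all merged regions. Both Myc libraries were above at 6 and below at 7, beside 10.8% and 2.83%, and both PCM1 libraries were above at 2 and below at 9, beside 1.76% and 9.96%. At an equal number of peaks 78 of 118256 regions were left. Input was then above at 10 and below at 2, beside 6.24% and 3.57%, Myc was above at 6 and below at 20, beside 12.6% and 9.20%, and PCM1 was above at 12 and below at 7, beside 10.3% and 8.95%. The share of regions lowest in Myc was above that among all regions at both settings, and this difference was not tested. A region can be lowest in a group only if the other 4 libraries all have a peak there. With all peaks, 47 of the 92 regions were open in all 6 libraries, beside 28.8% of all merged regions. The part of such shared regions in the counts below the other libraries was not tested.

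Some regions were on the same side at both settings. The share of all merged regions on the same side at both settings was not computed, so these counts are only a list. In Input 4 were above, the TSS of Hk2, Pfkp and Pdk4 and an Hk1 intron region 10.5 kb downstream of the nearest TSS, and 1 was below, an Hk1 intron region 18.8 kb downstream. In Myc 4 were above, the Ldha TSS and the region 6.83 kb upstream of it, the first Pfkm start and the Hif1a intron region, and 6 were below, the TSS of Slc2a4 and Pdk4, the Hk1 intron region at 7.87 kb, the third Pfkm start, the Pfkp exon region and the region 12.4 kb upstream of Ldha. In PCM1 1 was above, the third Pfkm start, and 7 were below, the TSS of Ldha and Hif1a, the first and second Pfkm starts, the Slc2a1 region at 33.7 kb, the region at Ybx2 and a region 79.2 kb downstream of the nearest Hk1 start. These include gaps as small as 0.126 percentage points at the Hk2 TSS in Input, and only the Slc2a1 region at 33.7 kb, with 61.8, and the Hif1a intron region, with 47.1, had a gap above 20 percentage points with all peaks.

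The sequences of the members were set beside those of all genes. RefSeq promoter sequences were found for 9 of the 10 genes, 14 starts in all, and Slc2a4 was not matched. In the 250 bases before the start, ACGTG was present in 6 of 14 (42.9%, beside 18.0% of 20150 promoters), the E-box in 3 (21.4%, beside 6.78%), the GC box in 4 (28.6%, beside 44.1%) and the GATA motif in 4 (28.6%, beside 8.62%). The TEAD motif and the MEF2 motif were in none, beside 11.5% and 2.56%. The starts of 1 gene share sequence, as those of Pfkm do, and each E-box is also an ACGTG match. The 78 regions away from a TSS of their own gene were set beside the 151413 regions away from any protein-coding TSS. The sets are not defined alike, as some of the 78, such as the region at Ybx2, lie at a start of another gene. In the 201 bases around the summits, ACGTG was present in 12.8%, beside 11.4%, the E-box in 3.85%, beside 3.84%, and the GC box in 12.8%, beside 6.16%. The TEAD motif was present in 16.7%, beside 15.8%, the GATA motif in 10.3%, beside 13.0%, and the MEF2 motif in 8.97%, beside 5.05%. A match is a string of letters and was not tested as a binding site.

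The rest of the pathway was mostly open as well. Of 39 other genes of glucose transport, glycolysis, lactate and pyruvate handling and the hypoxia pathway, 34 had a TSS peak in all 6 libraries, beside 59.2% of all protein-coding genes. With peaks within 200 bp of a TSS only, 30 did. The median of their mean TSS percentiles was 93.2, beside 94.7 for the 10 genes and 71.8 over all protein-coding genes. The highest were Pgk1, the phosphoglycerate kinase that makes ATP in lower glycolysis, at 99.9 ± 0.0596 (SD, n = 6), Pdhb, a subunit of pyruvate dehydrogenase, at 99.5 ± 0.447, and Mpc2, a subunit of the mitochondrial pyruvate carrier, at 99.4 ± 0.347. The 5 genes without a TSS peak in some library were Hk3, which had one in 1 library and a mean of 2.72, Slc2a3 (1 library, 2.79), Pklr (1 library, 4.38), Pfkfb1 (3 libraries, 11.9) and the lactate exporter gene Slc16a3 (3 libraries, 25.1). Pklr encodes the pyruvate kinase of liver and red cells, and Slc2a3 the transporter best known from neurons. By role, 10 of 11 genes of lower glycolysis, 9 of 10 of lactate and pyruvate, 6 of 6 of the hypoxia pathway, 4 of 5 of the phosphofructokinase step, 3 of 4 of the hexokinase step and 2 of 3 glucose transporters were open in all libraries. In Pdk1, Pdk2 and Pdk3, the kinases related to Pdk4, the mean TSS percentiles were 98.9 ± 0.454, 98.3 ± 0.791 and 88.5 ± 2.54 (SD, n = 6), below the 99.4 ± 0.582 of Pdk4.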

How the data were processed

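The authors made Omni-ATAC-Seq libraries from P1 hearts, mapped the reads to mm10 and called peaks per library in MACS2 (q-value 0.05). The submitters' processing notes name FastQC 0.11.5, Bowtie2 2.3.3.1, Picard 2.2.1, bedtools 2.7.1, MACS2 2.1.0.20160309 and HOMER. For each peak the authors deposited a score, a fold ratio of the pileup to the local background, a -log10 p-value and a -log10 q-value. The score, 10 times the -log10 q-value cut to a whole number, was not used. No read counts were analysed here, and library depth was taken from the pileup and background that each fold and p-value imply (99.8% to 100% of pileups were whole within 0.02).

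Peaks were ranked by the -log10 q-value within a library, and overlapping or touching peaks were merged. A gene's window was its body with 10 kb to either side in GENCODE M21. Isoforms were compared by exact sign-flip permutation tests over 6 libraries with Benjamini-Hochberg adjustment over 4 pairs. With 2 libraries per group, groups were described without a test. Python 3.11.15, numpy 2.4.6, scipy 1.17.1, pandas 2.3.3 and matplotlib 3.10.9 were used, and the computations were tested on simulated data.

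The 10 genes, the pathway list and the marker lists were chosen with earlier results of these data known. The text names all 10 genes, the TSS region and the strongest other region of each, for each group up to 3 regions above and 3 below the other libraries by the gap, and of the pathway list the highest 3, the lowest 3 and those lacking a TSS peak in some library. The further regions listed as being on the same side at both list lengths, the kinases related to Pdk4 and the start regions of Hk1, Hif1a and Pfkm beyond the strongest were named after their values were seen. Alternatives were a q-value threshold of 0.01, equal numbers of peaks, ranks by fold enrichment or pileup, a window of 2 kb, TSS within 200 bp, the 5′ end only, the strongest peak of the window, merged summits, peaks at start sites of other genes left out (added after seeing the data), and each library left out in turn.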

Additional observations from a re-analysis of the deposited data

Results flagged for a closer look

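The results listed here had every library of one group on one side of 0 and every library of another group on the opposite side. None of these differences was tested, because 2 libraries against 2 cannot give a two-sided exact permutation p below 0.333.

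At the third Pfkm start, the rank percentile minus that of the second start averaged 6.87 in PCM1, -11.7 in Input and -24.4 in Myc, a difference of 18.6 percentage points between PCM1 and Input and of 31.3 between PCM1 and Myc. Minus the first start it averaged 7.96 in PCM1, -12.8 in Input and -27.2 in Myc, a difference of 20.8 and of 35.2. The intron region of Pfkm at 6.77 kb minus the stronger of the first and second starts averaged 12.3 in PCM1 and -11.1 in Myc, a difference of 23.3. The third start, left out of this, stood at 87.3 and 87.9 in PCM1, beside 91.8 and 94.1 for the intron region.

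Pfkm minus Pfkp at the TSS averaged 1.51 in Myc, -6.93 in Input and -9.27 in PCM1, a difference of 8.43 between Myc and Input and of 10.8 between Myc and PCM1. The third Pfkm start is left out of these values. In PCM1 it stood at 87.3 and 87.9, beside 92.4 and 87.5 for Pfkp. Without the Pfkm start region shared with Senp1, Pfkm stood at 89.1 and 91.8 in Myc, beside 92.0 and 91.6 for Pfkp, so that the 2 Myc libraries then fell on opposite sides of 0. Slc2a4 minus Slc2a1 averaged 3.61 in PCM1 and -1.28 in Myc, a difference of 4.89.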

How the results depend on the processing

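Of 90 comparisons with an alternative setting other than a library left out, 81 kept their direction and their side of the threshold, or a count within 1.5 times. At an equal number of peaks, 2 regions had both Input libraries below the other 4, 20 had both Myc libraries below and 12 had both PCM1 libraries above. Ranked by fold enrichment, Slc2a4 minus Slc2a1 was -4.18 (exact permutation, adjusted p = 0.188), Hk2 minus Hk1 was 2.54 (adjusted p = 0.208) and 7 regions had both PCM1 libraries above. With the 5′ end of each gene only, Hk2 minus Hk1 was 92.1 and Ldhb minus Ldha 97.0, since the open Hk1 and Ldha starts are internal, and 7 of the 10 genes had a TSS peak in all 6 libraries. Ldhb minus Ldha was 21.9 ranked by fold enrichment, and Pfkm minus Pfkp was -0.445 with the strongest peak of the window, both in the direction reported. With summits merged, no region (0) was in both PCM1 libraries and no other, so that the Pfkp intron region at 44.0 kb was lost, and 1 had both PCM1 libraries above. The cause of the other changes was not tested. No isoform pair passed an adjusted p of 0.05 in any setting. Even the smallest p of the exact sign-flip test with 6 libraries, 0.0312, had an adjusted p of 0.0625 in the main setting. A pair could therefore not pass by its own values alone, and staying on the same side of the threshold says little.

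With each library left out in turn, Slc2a4 minus Slc2a1 ranged from -0.159 (without PCM1 replicate 2, where it turned) to 1.20, and the other pairs kept their direction: Hk2 minus Hk1 from -2.24 to -1.84, Pfkm minus Pfkp from -6.28 to -3.94 and Ldhb minus Ldha from 7.56 to 10.3. With 5 libraries the smallest p is 0.0625. Regions in both libraries of a group and no other numbered 0 to 7 for Input, 1 to 6 for Myc and 1 to 4 for PCM1. Regions with a group above the rest numbered 7 to 51 for Input, 6 to 19 for Myc and 2 to 15 for PCM1, and below the rest 1 to 16, 7 to 16 and 9 to 20. Each of the 6 libraries, when left out, moved at least 1 of these counts by over 1.5 times: without Input replicate 2, 51 regions had the remaining Input library above, 16 had Myc below, 20 had PCM1 below and 7 were in Input alone. Without Input replicate 1, 16 had Input below, 19 had Myc above, 15 had PCM1 above and 6 were in both Myc libraries and no other. Regions with Myc above numbered 16 without Myc replicate 1 and 11 without Myc replicate 2, and regions with PCM1 above numbered 8 without PCM1 replicate 1 and 11 without PCM1 replicate 2. With a group reduced to 1 library these counts are met more easily, by construction. No paired analysis was possible because no test compared the groups, and the labels do not tie a replicate number to a shared preparation.

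Depth limits the weak regions: a missing peak says that none was detectable in that library.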
